A study of Mus musculus with 2 samples.

Results

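Autophagy is the route by which a cell encloses part of its cytoplasm in a double membrane and delivers it to the lysosome for breakdown. The genes described here are 40 of the 32285 genes in the count tables. They were picked by gene symbol, and every one of the 40 symbols was found in the matrices of both libraries. They comprise 5 genes of the initiation complex, 6 of the class III PI3K complex and its partners, 6 of lipid transfer and PI3P binding, 6 of the conjugation systems, 5 of the Atg8 family, 4 cargo receptors, 3 transcription factors and 5 lysosomal genes.

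The ULK1 kinase complex starts an autophagosome when mTORC1 restraint is lifted or AMPK is active, and a PI3K complex then marks the growing membrane with PI3P. A ubiquitin-like conjugation cascade attaches Atg8 proteins (LC3 and GABARAP) to that membrane, cargo receptors bring in ubiquitinated material, and the closed vesicle fuses with the lysosome. In skeletal muscle this route clears mitochondria and protein aggregates, and both too much and too little of it are known to cost muscle mass. TFEB, TFE3 and MITF are the transcription factors that switch on lysosomal and autophagy genes together.

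BCL6 is a transcriptional repressor, and the series measured RNA in nuclei of the tibialis anterior (TA) muscle of mice with and without it in muscle. M-*Bcl6* KO mice carried *Myf6*-Cre and *Bcl6* fl/fl, whereas their M-*Bcl6* WT littermates carried *Myf6*-Cre and *Bcl6* wt/wt, so that the controls held the Cre transgene too. Cre was driven from the *Myf6* promoter, which is active in skeletal muscle, and the loxP sites flank exons 7 to 9 of *Bcl6*. For each genotype, both TA muscles of 2 males aged 6 weeks, on a C57BL/6 background, went into 1 library per genotype, with nuclei sorted on the DNA dye 7-AAD. Animals were pooled, so no value below has a replicate and no test between genotypes was possible. Every interval is an exact 95% interval that covers counting error only.

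Levels are sums of unique molecular identifiers (UMIs, each standing for 1 captured RNA molecule) over a set of nuclei, scaled to counts per 1000000 UMIs (CPM). The 3674 nuclei kept from the WT-labelled library had a median of 2555 UMIs, and the 3944 kept from the KO-labelled library a median of 2478.5. Myonuclei, named from 10 marker genes of muscle fibres, were 65.7% and 78.3% of them and gave 8863870 and 9651149 UMIs. *Bcl6* itself read 168 CPM in myonuclei of the WT-labelled library and 501 CPM in those of the KO-labelled library, which goes against the label. Counts per gene do not show which exons were read, and a 3′ tag can lie outside the deleted ones, so this checks neither label nor deletion. The libraries are therefore named by label throughout. *Meg3*, a maternally expressed non-coding RNA, stood apart at 392 and 20812 CPM. Of the nuclei kept, 5 barcode sequences occurred in both libraries.

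In myonuclei, the autophagy and lysosome genes showed no difference past 1.5-fold between the libraries in either direction. The log2 ratio of the KO-labelled library over the WT-labelled library had a median of −0.15 over the 6986 genes with at least 200 UMIs, so each ratio is also given relative to that median. Of the 40 genes, 38 had enough UMIs, and 0 of them were at least 1.5-fold higher or at least 1.5-fold lower relative to the median. Over all genes, 9.53% were higher and 5.68% lower by that rule. Without that centring, for which the share of all genes was not computed, *Atg5* was past 1.5-fold lower, at a log2 ratio of −0.65. The relative ratios ran from −0.50 for *Atg5* to 0.43 for *Wipi1*, with a median of −0.02. The counting interval lay wholly above the median of all genes for 12 of the 38 and wholly below it for 11, against 27.7% and 26.2% of all genes. Summed, the 40 genes held 0.487% of myonuclear UMIs in the WT-labelled library and 0.451% in the KO-labelled library. The plot of the ratios by role shows that members of 1 complex often lay on opposite sides of the median.

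**Figure D1:**
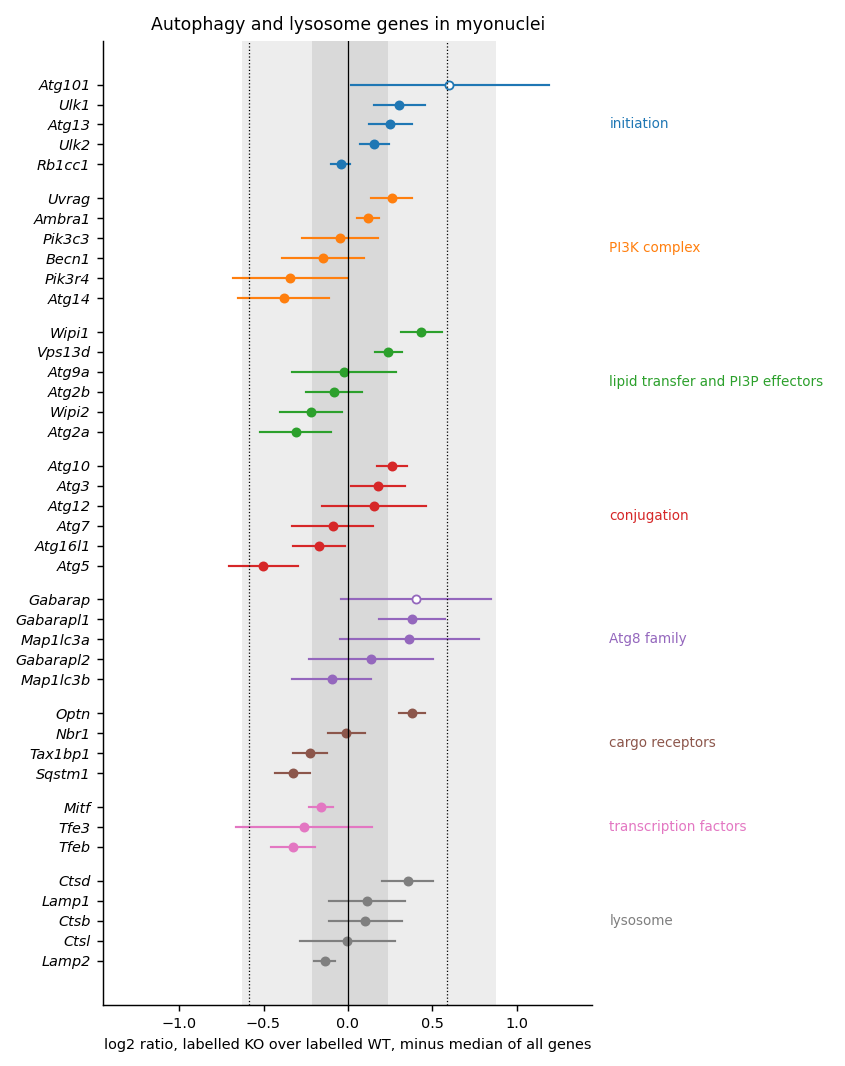
Log2 ratio of the KO-labelled library over the WT-labelled library in myonuclei, minus the median of all genes, for the 40 autophagy and lysosome genes grouped by role. Points are ratios and bars exact 95% counting intervals, open points mark the genes under 200 UMIs, dotted lines mark 1.5-fold, and the dark and light bands hold the middle 50% and 90% of all genes. Every filled point lies between the dotted lines, from −0.50 for *Atg5* to 0.43 for *Wipi1*. The open point of *Atg101* lies past the upper line, at 0.60.

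Among the initiation genes, the 2 ULK kinases lay above the median of all genes. *Ulk1*, which encodes the kinase that starts autophagosome formation, read 75.8 CPM in the WT-labelled library and 84.7 CPM in the KO-labelled library, a log2 ratio of 0.16 (0.01 to 0.31), or 0.31 relative to the median. Its relative *Ulk2* read 242 and 244 CPM, or 0.16 relative to the median. *Atg13*, the adaptor of that complex, read 105 and 112 CPM and stood at 0.25. *Rb1cc1*, the scaffold also known as FIP200, was read at 599 and 525 CPM and at −0.04, with an interval that reached both sides of the median. *Atg101*, a further subunit, gave 43 and 64 UMIs and was not counted. Its relative ratio, 0.60 (0.02 to 1.19), was past 1.5-fold on these few UMIs.

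Of the 6 genes of the class III PI3K complex and its partners, 2 lay above the median and 4 below it. *Uvrag* and *Ambra1*, which encode partners of Beclin 1, read 117 and 127 CPM and 423 and 415 CPM, at 0.26 and 0.12 relative to the median. *Atg14*, the subunit that directs the complex to autophagosome formation, read 30.1 CPM in the WT-labelled library and 20.9 CPM in the KO-labelled library, with a log2 ratio of −0.53 (−0.80 to −0.26) and a relative ratio of −0.38. *Pik3r4*, the regulatory subunit, read 19.1 and 13.6 CPM and stood at −0.34, on 169 and 131 UMIs. The lipid kinase *Pik3c3* and *Becn1*, which encodes Beclin 1, stood at −0.05 and −0.15 with intervals that crossed the median.

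The genes of lipid transfer and PI3P binding held the highest ratio of the 38. *Wipi1* (ENSMUSG00000041895, reverse strand, chr11:109573331-109611967) encodes a PI3P-binding protein of the early autophagosome. It read 109 CPM (102 to 116) in the WT-labelled library and 133 CPM (126 to 140) in the KO-labelled library, and these intervals did not overlap. It had a log2 ratio of 0.29 (0.17 to 0.41), or 0.43 relative to the median. Its paralog *Wipi2* lay on the other side, at 61.9 and 48.1 CPM and a relative ratio of −0.22. *Atg2a*, a lipid transfer protein, read 47.7 and 34.8 CPM and stood at −0.31. The lipid transporter *Vps13d* read 278 and 296 CPM, at 0.24, while *Atg2b* and the scramblase *Atg9a* stood at −0.08 and −0.03 with intervals across the median.

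Among the conjugation genes, *Atg5* had the lowest ratio of the 38. This gene (ENSMUSG00000038160, forward strand, chr10:44268358-44364291 in GRCm38) encodes the protein that is joined to ATG12 to form the enzyme that lipidates Atg8 proteins. It read 55.5 CPM (50.7 to 60.6) in the WT-labelled library and 35.4 CPM (31.8 to 39.4) in the KO-labelled library, and the intervals were apart. That is a log2 ratio of −0.65 (−0.85 to −0.45), which is −0.50 relative to the median, where 7.87% of all genes tested lay lower. *Atg16l1*, its partner in that enzyme, read 83.7 and 67.0 CPM, at −0.17. *Atg10* and *Atg3*, which encode the E2-like enzymes of the cascade, lay above the median at 0.26 and 0.18. *Atg7*, the E1-like enzyme, and *Atg12* stood at −0.09 and 0.15 with intervals that crossed it.

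In the Atg8 family, *Map1lc3a*, *Gabarap* and *Gabarapl2* gave few UMIs in nuclei. Only the ratio of *Gabarapl1* had an interval clear of the median. *Gabarapl1* read 43.7 CPM in the WT-labelled library and 51.3 CPM in the KO-labelled library, with a log2 ratio of 0.23 (0.04 to 0.43) and a relative ratio of 0.38. *Map1lc3a* read 10.1 and 11.8 CPM and stood at 0.36, on 90 and 114 UMIs. *Map1lc3b* and *Gabarapl2* stood at −0.09 and 0.14, and *Gabarap* gave 77 and 100 UMIs and was not counted. The interval of *Map1lc3a* ran from −0.05 to 0.78 relative to the median.

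The cargo receptors differed among themselves. *Optn* (ENSMUSG00000026672, reverse strand, chr2:5020642-5064051) encodes optineurin, a receptor for damaged mitochondria, and read 260 CPM (249 to 271) in the WT-labelled library and 305 CPM (294 to 317) in the KO-labelled library. It had a log2 ratio of 0.23 (0.15 to 0.31), or 0.38 relative to the median. *Sqstm1* (ENSMUSG00000015837, reverse strand, chr11:50199366-50210827) encodes p62, the receptor for ubiquitinated aggregates, and read 192 CPM (183 to 201) and 138 CPM (131 to 146), and so lay on the other side at a log2 ratio of −0.47 (−0.58 to −0.37) and −0.33 relative to the median. For both genes the intervals of the 2 libraries were apart, in opposite directions. *Tax1bp1* read 200 and 155 CPM, at −0.22, and *Nbr1* 152 and 137 CPM, at −0.01.

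All 3 transcription factor genes lay below the median of all genes, and did so with TMM, median-of-ratios or no centring as well. *Tfeb* (ENSMUSG00000023990, forward strand, chr17:47737030-47792419) read 120 CPM (113 to 127) in the WT-labelled library and 86.4 CPM (80.6 to 92.5) in the KO-labelled library, a log2 ratio of −0.47 (−0.61 to −0.34), or −0.33 relative to the median. *Mitf* read 418 and 338 CPM, at −0.16 (−0.23 to −0.09) relative to the median. *Tfe3* read 13.2 and 9.95 CPM on 117 and 96 UMIs, and its relative ratio of −0.26 had an interval across the median. The intervals of *Tfeb* and *Mitf* in the 2 libraries did not overlap.

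The lysosomal genes were led by *Ctsd*, which encodes the aspartic protease cathepsin D. It read 73.4 CPM in the WT-labelled library and 84.9 CPM in the KO-labelled library, with a log2 ratio of 0.21 (0.06 to 0.36) and a relative ratio of 0.36. The cysteine cathepsins *Ctsb* and *Ctsl* read 39.6 and 38.4 CPM and 24.4 and 22.0 CPM, at 0.10 and −0.00 relative to the median. *Lamp1*, a lysosomal membrane protein, stood at 0.11 with an interval across the median, and *Lamp2*, the receptor of chaperone-mediated autophagy in one of its forms, read 493 and 405 CPM at −0.14 (−0.20 to −0.07).

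TFEB, TFE3 and MITF read the E-box CACGTG, a palindrome that is the same on both strands. The letters were searched in RefSeq promoter windows of GRCm38.p6, each from 250 bases before to 50 bases after a gene's start, which were held for 33 of the 40 genes. They occurred in 7 of the 33 (21.2%) and in 8.09% of all 27025 genes with a window. A gene was counted when any of its windows held the letters, over 32851 windows in all. Genes with more starts thus had more chances, and the shares were not adjusted for this. The ratios of the 7 genes in myonuclei ran from −0.50 to 0.36 against the median gene, with 3 above it and 4 below it. The stretches below show the 4 E-boxes of *Lamp1*, the pair of *Atg3* and 1 of those of *Ctsd*. They also show the E-boxes next to a RefSeq start of *Atg14* and *Atg5*, the genes with the lowest ratios. Each is given 5′ to 3′ on the gene's strand with the E-box in capitals. *Lamp1* lies on the forward strand (chr8:13159088-13159163), as do *Atg3* (chr16:45158723-45158775) and *Atg5* (chr10:44268313-44268342), and *Ctsd* (chr7:142387908-142387937) and *Atg14* (chr14:47568418-47568447) lie on the reverse strand.
Lamp1: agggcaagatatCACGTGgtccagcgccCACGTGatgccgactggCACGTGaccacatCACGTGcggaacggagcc
Atg3: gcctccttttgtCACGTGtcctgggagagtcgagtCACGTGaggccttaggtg
Ctsd: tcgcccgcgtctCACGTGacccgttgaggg
Atg14: aaaacaaaatccCACGTGactggccctgag
Atg5: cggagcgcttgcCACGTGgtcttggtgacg
The first E-box of *Lamp1* begins 61 bases before a RefSeq start, and those of *Atg14* and *Atg5* begin 1 and 14 bases before one. Starts are those of RefSeq. The stretches of *Ctsd* and *Atg14* lie inside the longer GENCODE M21 models of these genes. Those of *Ctsl* and *Atg7*, which are among the 7 but not shown, lie inside their models as well. The model of *Atg14* begins at chr14:47570649 on the reverse strand, so the start used here is internal to it. A match of letters is a description and not a bound site.

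BCL6 and STAT factors read similar sequences, of the form TTCNNNGAA, which is also the same on both strands. Counted in the same way, these letters were in the windows of 4 of the 33 genes (12.1%) and of 9.55% of all genes. Of the 4, *Wipi1* had the highest ratio of all members tested, *Gabarapl1* stood at 0.38, *Nbr1* at −0.01, and *Gabarap* had too few UMIs. The stretches around the letters are shown for the 2 members with a ratio clear of the median, both 5′ to 3′, with *Wipi1* on the reverse strand (chr11:109611529-109611557) and *Gabarapl1* on the forward strand (chr6:129532968-129532996). No overlap with the E-box was found in these stretches.
Wipi1: acccagccgaTTCTCTGAAggaggggcgg
Gabarapl1: tgttagagcaTTCTTTGAAttaacaaatt
The letters begin 158 bases before the start of *Wipi1* and 214 before that of *Gabarapl1*, again by RefSeq. The GENCODE M21 model of *Wipi1* begins further upstream, so its stretch lies inside that model.

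Myonuclei were then divided by the myosin heavy chain gene with most UMIs in each nucleus, *Myh4* for type IIb, *Myh1* for IIx and *Myh2* for IIa. The groups IIb, IIx and IIa held 704, 1161 and 234 nuclei in the WT-labelled library and 611, 1175 and 482 in the KO-labelled library. A further 274 and 734 had no UMI of a *Myh* gene and 39 and 66 had a tie, and nuclei led by *Myh7*, the type I gene, numbered only 2 and 19. Of 29 members tested, 5 were higher in IIa than IIb by at least 1.5-fold in each library, relative to the median, which 13.5% of all 4330 genes were. By the same rule 2 were lower, against 10.4% of all genes, so the members' shares lay near those of all genes.

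*Atg10*, which encodes the E2-like enzyme that joins ATG12 to ATG5, was among the 5 that were higher. In the WT-labelled library it read 92.6 CPM in IIb, 274 CPM in IIx and 280 CPM in IIa, and in the KO-labelled library 78.0, 255 and 363 CPM. The log2 ratio of IIa over IIb was 1.60 (1.33 to 1.86) and 2.22 (1.95 to 2.50), and no interval of IIb overlapped one of IIx or IIa. *Mitf* followed the same order, at 282, 492 and 561 CPM in the WT-labelled library and 232, 373 and 423 CPM in the KO-labelled library. The log2 ratio of IIa over IIb for *Mitf* was 0.99 (0.82 to 1.16) and 0.87 (0.69 to 1.05).

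*Ctsb*, the gene of cathepsin B, read 19.6, 48.7 and 61.3 CPM over IIb, IIx and IIa in the WT-labelled library and 23.7, 41.7 and 51.5 CPM in the KO-labelled library. *Vps13d* was higher in IIa than IIb by a log2 ratio of 0.88 (0.67 to 1.09) and 1.06 (0.87 to 1.26). The same ratio for *Wipi1* was 0.80 (0.47 to 1.12) and 0.56 (0.26 to 0.85). Neighbours in these orders were not always distinct. The intervals of IIx and IIa overlapped for *Ctsb* in both libraries and for *Atg10* and *Mitf* in the WT-labelled library.

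The 2 genes that were lower in IIa than IIb came from the same role as *Wipi1* and *Vps13d*, that of lipid transfer and PI3P binding. *Wipi2*, the paralog of *Wipi1*, read 79.0 CPM in IIb and 34.7 CPM in IIa in the WT-labelled library, and 67.6 and 31.7 CPM in the KO-labelled library. *Atg2a* read 57.7 and 33.6 CPM, and then 52.6 and 29.3 CPM. The log2 ratios of IIa over IIb were −1.19 (−1.79 to −0.63) and −1.09 (−1.59 to −0.61) for *Wipi2* and −0.78 (−1.41 to −0.20) and −0.84 (−1.37 to −0.33) for *Atg2a*.

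Between IIx and IIb, 5 of 35 members were at least 1.5-fold higher in IIx in each library (11.6% of all genes) and 0 were at least 1.5-fold lower (5.14%). They were *Vps13d*, *Atg10*, *Mitf*, *Ctsb* and *Optn*. *Optn* had a log2 ratio of IIx over IIb of 0.58 (0.43 to 0.73) in the WT-labelled library and 1.36 (1.17 to 1.56) in the KO-labelled library. *Ulk1* was not counted, at −0.65 (−0.89 to −0.40) and 0.30 (−0.00 to 0.61). Between IIa and IIx, *Ulk1* was lower in IIa in each library, at 39.3 and 56.2 CPM against 64.3 and 87.3 CPM, and was the only 1 of 33 past 1.5-fold (1.93% of all genes were higher and 2.12% lower). Between the nuclei without *Myh* UMIs and IIb, 0 of 30 members were past 1.5-fold in both libraries (1.86% and 1.02% of all genes).

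**Figure D2:**
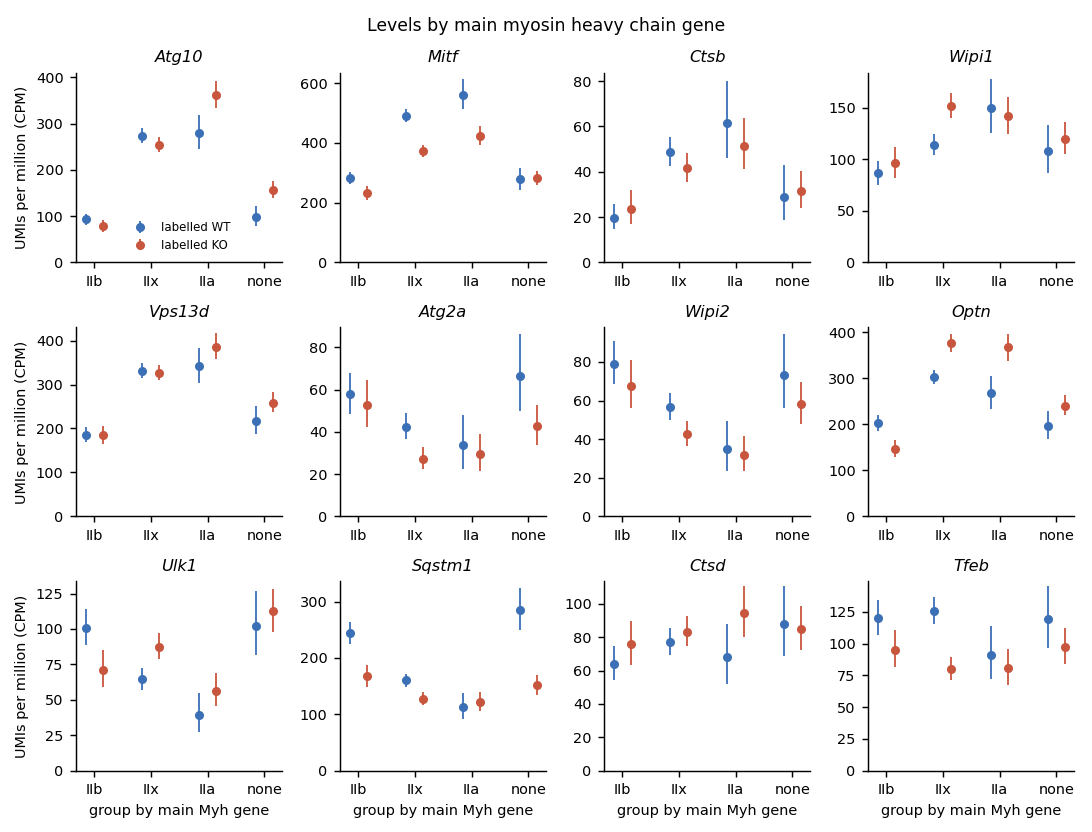
CPM in myonuclei grouped by main *Myh* gene, for 12 members, in the WT-labelled library (blue) and the KO-labelled library (red). Bars are exact 95% counting intervals and each vertical axis starts at 0. *Atg10* lies between 78.0 and 92.6 CPM in IIb and between 255 and 363 CPM in IIx and IIa, while *Wipi2* and *Atg2a* run the other way.

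The ratio between libraries was also read within each group of nuclei, since the groups made up different shares of the libraries. The genes that set the groups differed between the libraries too. In myonuclei of the WT-labelled and KO-labelled library, *Myh4* read 773 and 459 CPM, *Myh1* 2913 and 1812 CPM and *Myh2* 510 and 735 CPM. Whether a group held the same kinds of nuclei in each library was not tested. In IIb, 0 of 22 members were past 1.5-fold (7.86% of all genes were higher and 6.83% lower). In IIx, *Ulk1* rose from 64.3 to 87.3 CPM, at 0.60 (0.37 to 0.83) against the median gene of those nuclei, and was the only 1 of 31 (9.55% and 6.51%). In IIa, *Ctsd* rose from 68.3 CPM (52.0 to 88.1) to 94.5 CPM (80.4 to 110), at 0.59 and with overlapping intervals, and was the only 1 of 16 (8.96% and 5.51%). In nuclei without *Myh* UMIs, *Atg10* rose from 97.5 to 157 CPM and *Sqstm1* fell from 285 to 151 CPM, at 0.80 and −0.80, among 18 members (12.7% and 7.87%).

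Some genes had ratios between libraries that differed between these groups of nuclei, and those of *Optn* and *Ulk1* lay in opposite directions. *Optn* read 202 CPM in IIb of the WT-labelled library and 146 CPM in that of the KO-labelled library, but 302 and 376 CPM in IIx and 267 and 367 CPM in IIa. *Ulk1* read 101 and 71.1 CPM in IIb, against 64.3 and 87.3 CPM in IIx. *Tfeb* stood at −0.50 (−0.70 to −0.30) relative to the median in IIx and at −0.20 and −0.06 in IIb and IIa, where its intervals crossed the median. *Sqstm1* stood at −0.42 (−0.62 to −0.21) in IIb, −0.17 in IIx and 0.22 in IIa, where its interval crossed the median.

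The ratio between libraries was also read in clusters of myonuclei, made without the members and without genes that differed 2-fold between libraries. In the 5 clusters that held 100 or more nuclei from each library, the median relative ratio of the members tested ran from −0.07 to 0.25. *Sqstm1* stood at −0.95 in cluster 3 (273 and 128 CPM), whose leading genes include *Actn3* and *Mybpc2* of fast fibres, and at 0.03 in cluster 0 (162 and 145 CPM), led by *Ppara* and *Ppargc1a*. In that cluster 0, *Optn* stood at 0.75 (360 and 533 CPM), *Ulk1* at 0.82 (66.0 and 102 CPM) and *Atg5* at −0.86 (59.2 and 28.6 CPM). Also past 1.5-fold there, among 27 members tested, were *Wipi1* at 0.65, *Ctsd* at 0.59 and *Tfeb* at −0.66. In cluster 2, *Ulk1* and *Optn* lay on the other side, at −0.53 and −0.38. *Tfeb* stood at −0.33 in cluster 1 and −0.07 in cluster 2, but at 0.31 in cluster 3 (115 and 128 CPM). Other clusters held members past 1.5-fold too, such as *Wipi1* at 0.88 in cluster 5 and *Wipi2* at −0.73 in cluster 3. The share of all genes past 1.5-fold in a cluster was not computed, so these members cannot be set apart from other genes.

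The other nuclei of the muscle were named from fixed markers. FAP-like nuclei, the fibro-adipogenic cells of the connective tissue, numbered 481 and 328, endothelial-like 223 and 130, MuSC-like (muscle stem cells) 186 and 127, pericyte-like or smooth muscle-like 159 and 117, macrophage-like 97 and 62 and tenocyte-like 52 and 51. The 10 myonuclear markers held 9.74% and 11.4% of UMIs in myonuclei and between 0.165% and 1.11% in these classes, a level that bears on any gene that myonuclei hold in large amount. Each class was set against the myonuclei of its own library, and a member was counted when it differed at least 2-fold the same way in both libraries. Over the 6 classes, 138 pairs of member and class had enough UMIs, of which 7 were higher and 24 lower in the class. In each class the share of members that were higher was below the share of all genes given beside it.

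In macrophage-like nuclei 4 of 18 members were higher than in myonuclei (32.1% of all genes) and 2 were lower (19.1%). *Uvrag* read 1005 CPM in the WT-labelled library and 1360 CPM in the KO-labelled library, against 117 and 127 CPM in myonuclei, with log2 ratios of 3.10 (2.86 to 3.33) and 3.43 (3.19 to 3.65). *Ctsb* read 228 and 277 CPM against 39.6 and 38.4 CPM, *Atg7* 188 and 177 CPM against 34.3 and 29.1 CPM, and *Mitf* 1337 and 953 CPM against 418 and 338 CPM. Cathepsin B is a protease that macrophages are known to hold in quantity, and MITF acts in the myeloid lineage as well as in pigment cells.

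In FAP-like nuclei 2 of 36 members were higher (26.2% of all genes) and 4 lower (15.8%). *Uvrag* read 296 and 468 CPM, with log2 ratios over myonuclei of 1.34 (1.16 to 1.52) and 1.89 (1.71 to 2.06), and *Tfe3* 28.6 and 21.3 CPM against 13.2 and 9.95 CPM. The lower members were *Ulk1*, *Optn*, *Tfeb* and *Ctsd*. *Tfeb* read 42.5 and 39.8 CPM against 120 and 86.4 CPM, so that *Tfeb* and *Tfe3*, paralogs of 1 family, lay on opposite sides.

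In endothelial-like nuclei 1 of 25 members was higher (29.3%) and 7 were lower (19.0%). *Uvrag* was the higher one, at 349 and 372 CPM. *Mitf* was among the lower ones, at 38.2 and 18.6 CPM on 15 and 5 UMIs, and was lower in MuSC-like nuclei too, at 51.3 and 36.3 CPM on 14 and 7 UMIs. Of 19 members tested in MuSC-like nuclei, 0 were higher (23.7%) and 4 lower (14.8%), and the highest ratio was that of *Atg3*, at 1.10 (0.59 to 1.56) and 0.80 (0.14 to 1.40). In pericyte-like or smooth muscle-like nuclei 0 of 25 were higher (24.0%) and 5 lower (18.9%), the highest being *Uvrag* at 0.71 and 0.80. In tenocyte-like nuclei 0 of 15 were higher (24.7%) and 2 lower (17.5%), the highest being *Mitf* at 0.69 and 1.17.

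*Optn* was lower in each of the 6 classes and in both libraries. It read 260 and 305 CPM in myonuclei, 12.9 and 19.9 CPM in FAP-like nuclei and 23.3 and 108 CPM in tenocyte-like nuclei, the latter on 3 and 15 UMIs. The log2 ratio to myonuclei ran from −5.51 to −2.67 in the WT-labelled library and from −3.94 to −1.50 in the KO-labelled library. The myonuclear markers gave ratios from −5.88 to −3.13 and from −5.29 to −3.41 on the same scale. The part of free myonuclear RNA in the *Optn* reads of these classes was not tested.

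The medians over all genes tested lay above 0 in each class, from 0.06 to 0.34 in the WT-labelled library and from 0.20 to 0.49 in the KO-labelled library, while those of the members ran from −0.86 to 0.13 and from −0.67 to 0.24. Counted against those medians of all genes, 6 pairs were higher and 37 lower, and *Tfe3* in FAP-like nuclei was no longer counted.

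**Figure D3:**
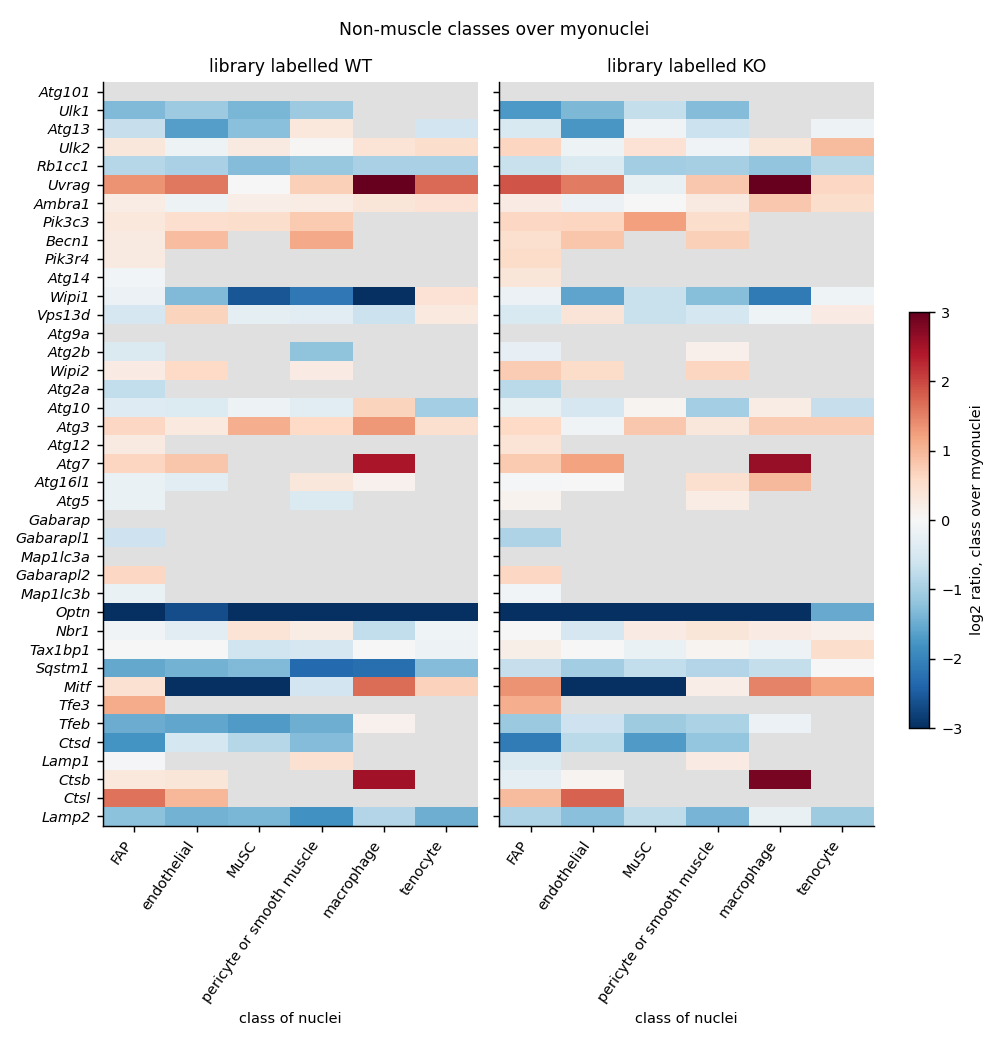
Log2 ratio of CPM in each non-muscle class over CPM in myonuclei of the same library, for the 40 members by role, in the WT-labelled library (left) and the KO-labelled library (right). Red is higher and blue lower than in myonuclei, colours are capped at 3 in either direction, and grey marks pairs with too few UMIs. *Optn* is blue in every class, and *Uvrag*, *Atg7* and *Ctsb* are deep red in the macrophage-like column.

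Between libraries, the classes had few members with at least 200 UMIs. Of 10 in FAP-like nuclei, *Uvrag* rose from 296 to 468 CPM and *Mitf* from 570 to 861 CPM, at 0.72 and 0.65 relative to the median, and 0 were at least 1.5-fold lower (5.66% and 2.91% of all genes). In macrophage-like nuclei *Mitf* read 1337 and 953 CPM, at −0.47, and *Uvrag* 1005 and 1360 CPM, at 0.45. *Mitf* thus stood above the median in FAP-like nuclei and below it in macrophage-like nuclei and myonuclei.

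Other genes of the pathway were read from 4 lists. Among the mTORC1, AMPK and nutrient-sensing genes, which act upstream of ULK1, 24 were tested. Of these, 6 were at least 1.5-fold higher in myonuclei of the KO-labelled library relative to the median and 0 were at least 1.5-fold lower. Over all genes the shares were 9.53% and 5.68%. The list was chosen with earlier results of these data known, so nothing is concluded from its share beside that of all genes. Without centring on the median of all genes, 4 genes of the list were higher and 2 lower, and the share of all genes was not computed that way. *Prkag2*, a regulatory subunit of AMPK, rose from 27.5 to 97.3 CPM, with a log2 ratio of 1.82 (1.62 to 2.03). *Fnip2*, a partner of folliculin, rose from 23.1 to 59.9 CPM, with a log2 ratio of 1.37 (1.14 to 1.61). *Sesn1* and *Ddit4*, which encode inhibitors of mTORC1, rose from 552 to 1091 CPM and from 46.0 to 86.5 CPM.

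*Flcn*, the gene of folliculin itself, and *Lamtor1*, the lysosomal anchor of the Ragulator complex, were at 0.64 and 0.61 relative to the median. *Flcn* read 99.3 and 140 CPM and *Lamtor1* 18.6 and 25.7 CPM. The lowest of this list were 2 other AMPK subunits, *Prkab2* at −0.54 and *Prkag3* at −0.46, so the subunits of AMPK lay on both sides. *Prkab2* read 98.0 and 61.0 CPM and *Prkag3* 31.8 and 20.9 CPM. The median of the list was 0.12.

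Among the other lysosomal hydrolases and membrane proteins, 2 of 28 were at least 1.5-fold higher and 1 was at least 1.5-fold lower (9.53% and 5.68% of all genes), with a list median of 0.08. Without centring 2 were higher and 5 lower, again without a share of all genes on that rule. *Npc1*, which encodes the transporter that carries cholesterol out of the lysosome, fell from 248 CPM to 117 CPM, with a log2 ratio of −1.09 (−1.19 to −0.98). *Glb1*, the lysosomal beta-galactosidase, rose from 14.6 to 23.5 CPM and *Ctsz*, cathepsin Z, from 15.9 to 24.1 CPM, on 129 to 233 UMIs each. *Manba*, the lysosomal beta-mannosidase, read 55.8 and 33.9 CPM, at −0.57 relative to the median.

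Of 25 other genes of autophagosome formation and fusion, *Tmem41b*, which encodes a lipid scramblase of the endoplasmic reticulum, rose from 106 to 193 UMIs, at 0.89 relative to the median, and 0 were at least 1.5-fold lower (9.53% and 5.68% of all genes), with a list median of −0.05. The next highest was *Atg4a*, a protease that processes Atg8 proteins, at 0.26. The lowest were *Vps33a* of the HOPS fusion complex and *Sh3glb1*, a Beclin 1 partner, at −0.41 and −0.36. Of 14 V-ATPase genes, which encode the proton pump of the lysosome, *Atp6ap2* rose from 24.6 to 35.1 CPM and *Atp6v0a2* fell from 25.4 to 14.9 CPM (again beside 9.53% and 5.68%), and the median was 0.01. Without centring *Atp6ap2* was not counted. *Atp6v1b2* and *Atp6v0a1* were next, at 0.38 and −0.28.

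**Figure D4:**
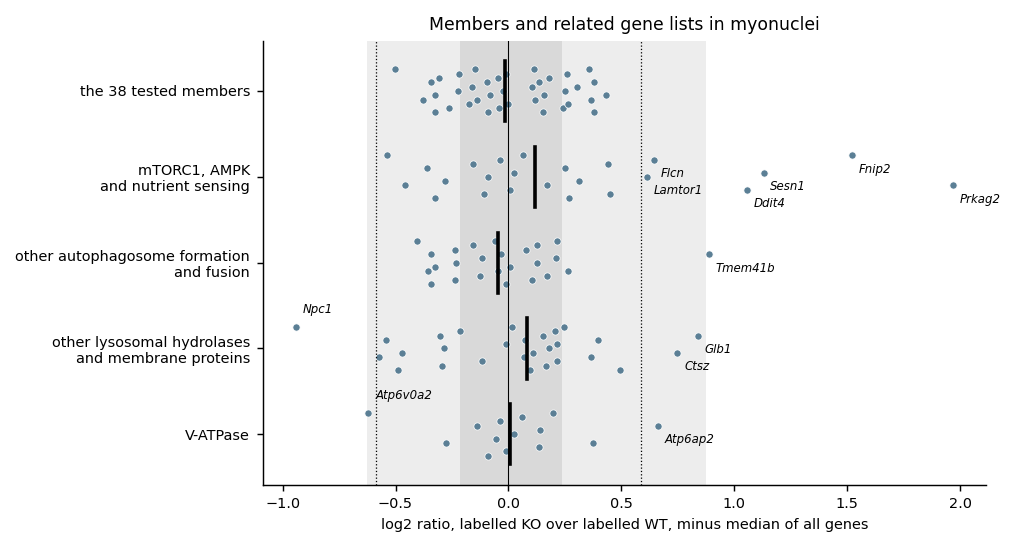
Log2 ratio of the KO-labelled library over the WT-labelled library in myonuclei, minus the median of all genes, for the 38 members tested and 4 related gene lists. Each point is a gene, thick bars are list medians, dotted lines mark 1.5-fold, and the dark and light bands hold the middle 50% and 90% of all genes. The nutrient-sensing list reaches 1.97 with *Prkag2* and the lysosomal list −0.94 with *Npc1*, while the members stay between −0.50 and 0.43.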

How the data were processed

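Single-nucleus RNA sequencing was done on 1 library per genotype. As deposited by the authors, 1 matrix per library holds unnormalized whole UMI counts (11974138 UMIs over 3798 barcodes in the WT-labelled library and 12026013 over 4096 in the KO-labelled library). The submitters' processing notes name Cell Ranger 7.0.0, Seurat 5.0.3 and mm10. A Chromium 3′ kit is named in the methods, but the labels give the 10x Multiome kit. Whether counting used strand is not given in the sources used here, and 13 members overlap a measured gene on the other strand (*Optn*, *Gabarapl1*, *Uvrag*, *Lamp1*, *Ctsb*, *Ctsl*, *Sqstm1*, *Atg14*, *Rb1cc1*, *Becn1*, *Atg9a*, *Atg2b* and *Map1lc3b*), whose reads then cannot be told apart.

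Nuclei were kept with 200 to 5000 genes and at most 5% mitochondrial UMIs, which removed 9 and 18. Doublets were the highest Scrublet scores (Scanpy 1.11.5) at 0.8% per 1000 barcodes, 115 and 134 nuclei. Libraries were joined by RPCA anchors in Seurat 5.3.0 under R 4.3.3 and clustered at resolution 0.5 on 30 principal components, without the members, the related lists and 400 genes that differed 2-fold between libraries in myonuclei. The Harmony and DoubletFinder steps of the methods were not used. Clusters were named from fixed markers. UMIs were summed per class and scaled to CPM in Python 3.11.15, and the interval of a log2 ratio is exact, given the total UMIs of the gene (scipy 1.17.1). A class was compared with myonuclei where the mean level would give at least 10 UMIs in each library.

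The Wilcoxon test over nuclei in the methods was not repeated, since nuclei are not replicates. In simulated data for the comparison of myonuclei, 92 of 93 genes changed 2-fold, 0 of 98 changed 1.2-fold and 2 of 6809 unchanged genes passed 1.5-fold, among 7000 tested. The simulated libraries held counting error only. They therefore cannot show how often differences between mice or libraries would pass the rule. The members and lists were chosen with earlier results of these data known. The genes named were the 5 highest and 5 lowest members in myonuclei, the families *Map1lc3* and *Gabarap*, *Tfeb*, *Ulk* and cathepsins, every member past 1.5-fold between fibre types, the highest member of each class and the 2 highest and 2 lowest of each related list. Other members were named after their values were seen. Positions are from GENCODE M21 and promoter stretches from RefSeq, both on GRCm38. Alternatives changed the filters, the clustering, the scaling (edgeR 4.0.16, DESeq2 1.42.0), the depth and the fibre type weights.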

Additional observations from a re-analysis of the deposited data

Results flagged for a closer look

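A difference in direction between groups of nuclei was looked for where the counting intervals of the same ratio, KO-labelled over WT-labelled library and relative to the median of all genes in those nuclei, lay on opposite sides of the median. None of these differences was tested, since each library is 1 sample.

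*Optn* stood at −0.34 in IIb and at 0.57 in IIa. *Ulk1* stood at −0.37 in IIb and 0.60 in IIx. *Rb1cc1*, its scaffold, stood at −0.37 in IIb and 0.11 in IIx, from 684 to 485 CPM in the first and from 572 to 554 CPM in the second. *Lamp2* stood at −0.28 in IIb and 0.20 in nuclei without *Myh* UMIs. These genes were picked for ratios on opposite sides, and the share of all genes with such ratios was not computed.

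*Mitf* stood at −0.16 in myonuclei, at 0.65 in FAP-like nuclei and at 0.45 in pericyte-like or smooth muscle-like nuclei, where it read 279 and 388 CPM. The summed myonuclear markers in FAP-like nuclei held 0.165% of UMIs in the WT-labelled library and 0.401% in the KO-labelled library, and their part in this ratio was not tested.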

How the results depend on the processing

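No paired analysis was possible because each genotype has 1 library, and for the same reason no replicate could be left out. Among the 38 members tested in myonuclei, 29 kept the sign of their ratio relative to the median under each filter, clustering, scaling, depth and weighting that left the gene enough UMIs. Ratios without centring were left out of that count. Members past 1.5-fold stayed at 0 in each direction with 2 exceptions. When only nuclei led by *Myh1* were read 1 was higher (*Ulk1*), and without centring, an alternative chosen after seeing the data, 1 was lower (*Atg5*). Leaving out the barcodes found in both libraries, also chosen after seeing the data, left the counts at 0. Of the related lists, 10 genes were higher and 2 lower. Fewer higher genes, 5, were counted after thinning to 1000 UMIs, which leaves fewer genes tested, and more were counted with a filter of 20 UMIs (17 higher, 6 lower) or none (17 higher, 7 lower), which test more. Without centring 8 were lower, and with nuclei assigned by their own markers 1 was lower. After thinning, the members higher and lower in IIa than IIb numbered 3 and 1, with fewer genes tested. *Atg101* and *Gabarap* had too few UMIs to be counted. The numbers of myonuclei and of calls in the other classes stayed within 1.5 times under the filters and clusterings tried. With class ratios relative to the median of all genes, chosen after seeing the data, the lower calls were 37 in place of 24.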
